A study of Homo sapiens with 6 samples.

Results

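MDM2, TP53I3, ZMAT3, FDXR, XPC, DDB2, RRM2B, TP53INP1 and TIGAR are a group of p53 feedback and target genes, described here in 12Z cells after frankincense extract. The members were found by matching gene identifiers to these symbols: 9 of the 60616 genes in the tables, each with 1 identifier, and all 9 passed the filter on low counts. The study sequenced mRNA from the 12Z line, immortalized human endometriotic cells; endometriosis is the growth of womb-lining tissue outside the uterus. The treated group received frankincense extract, a preparation of Boswellia tree resin, at 70 ug/mL in DMSO for 12 h (3 libraries). The vehicle group received DMSO alone (3 libraries). Both groups were labelled wild type and grown in DMEM/F12 with 10% charcoal-stripped serum and antibiotics. Separate cultures are not stated for the replicates, so the p-values reflect the spread of these libraries alone, and that spread may be technical. Both groups come from a single cell line, and the values are RNA levels, not p53 protein.

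The p53 protein is a transcription factor that is held at a low level by MDM2, a ubiquitin ligase that marks it for destruction, and MDM2 is itself a p53 target, which closes a negative feedback loop. When DNA damage or another stress interrupts that loop, p53 accumulates and switches on genes for cell cycle arrest, DNA repair, metabolism and cell death. Some of its targets, such as CDKN1A and GADD45A, are also switched on by other stress factors, among them ATF4, CHOP and NRF2, while others are known mainly as p53 targets. The 12Z line was immortalized with the large T antigen of a simian virus, a protein known to bind p53. The p53 protein binds a DNA element made of a pair of decamers, each a run of purines, a core that holds a C and a G, and a run of pyrimidines.

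Promoter sequences show where such elements lie near the starts of the members. RefSeq windows on GRCh38.p14, from 250 bases before to 50 bases after a start, were found for 7 of the 9 members (13 windows, all but RRM2B and TP53INP1). The full p53 site (20 bases without a spacer, up to 2 mismatches, the core C and G of each decamer kept) was in 0.285% of all 35116 windows and 3 of the members' 13, and a single exact decamer (10 bases) was in 6.63% and in 2 of 13. MDM2 held a full site with 2 mismatches, the same in 2 overlapping windows, 101 bases before its inner start. DDB2 held a full site with 1 mismatch that spans the RefSeq start of 1 of its windows. DDB2 also held a pair of exact decamers with a single base between them, the first of which is the end of that full site. FDXR held an exact decamer 11 bases before the RefSeq start of 1 of its windows. These RefSeq starts of DDB2 and FDXR, and that of the TIGAR window, lie inside the gene spans given below, not at their ends. Windows of TIGAR, XPC, TP53I3 and ZMAT3 held neither form, which says only that these letters are absent there. The sequences below are shown because MDM2, DDB2 and FDXR carry a match and gave different test results (higher, lower and not called), and because TIGAR, the member with the largest change, carries none. All are 5′ to 3′, on the plus strand except FDXR, which is on the minus strand; capitals mark the p53 site or decamers. The MDM2 run is chr12:68808774-68809001, DDB2 decamer pair chr11:47214979-47214999, FDXR chr17:74872991-74873010 and TIGAR chr12:4320963-4321204. The MDM2 and TIGAR runs stop where annotated exons begin, and the DDB2 run lies in an annotated 5′ UTR.
MDM2, upstream of the inner start: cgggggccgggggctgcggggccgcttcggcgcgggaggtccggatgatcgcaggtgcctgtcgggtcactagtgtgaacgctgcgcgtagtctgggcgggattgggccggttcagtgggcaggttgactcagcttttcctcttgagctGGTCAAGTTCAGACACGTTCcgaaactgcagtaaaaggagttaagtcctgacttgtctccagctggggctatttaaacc
DDB2, decamer pair: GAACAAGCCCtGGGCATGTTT
FDXR, decamer with 5 bases either side: ggagcGGGCTTGCCCtgcgg
TIGAR, upstream: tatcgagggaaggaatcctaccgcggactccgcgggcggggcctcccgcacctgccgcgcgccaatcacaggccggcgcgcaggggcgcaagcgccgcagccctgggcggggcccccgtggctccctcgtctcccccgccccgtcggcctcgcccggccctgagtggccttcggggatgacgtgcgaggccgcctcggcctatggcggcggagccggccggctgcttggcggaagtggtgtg

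The same windows were searched on both strands for an ATF4 element, TGATGNAA, and for an NRF2 element, TGACNNNGC. The ATF4 element was in 3.62% of all windows and in 0 of the members' 13 windows. The NRF2 element was in 13.4% of all windows and in 4 of the members' 13, of which 2 are overlapping windows of MDM2 and the others those of TP53I3 and XPC. Among p53 targets that other stress routes also induce, called stress-shared here, 12 of 14 genes had windows (13 in all): 0 held the full p53 site, PLK2 held a decamer, ATF3 and PLK3 held the ATF4 element, and 0 held the NRF2 element. A match describes the letters only and is not a measured binding site.

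Of the 9 genes, 6 were higher and 1 was lower after the extract, and 2 did not pass the test. TIGAR, XPC, MDM2, RRM2B, TP53INP1 and TP53I3 were higher, by 1.16-fold to 2.57-fold, DDB2 was lower at 0.83-fold, and FDXR and ZMAT3 were not called. Each gene was tested with edgeR's quasi-likelihood test on expected counts, which are the reads that the RSEM program estimates for a gene, and a gene was called at a Benjamini-Hochberg adjusted p under 0.05. The treatment moved much of the transcriptome: 62.9% of the 16719 genes tested were called, 31.9% higher and 31.0% lower. The 6 of 9 higher and 1 of 9 lower are to be read against those shares. Median log2 change was 0.23 over the 9 genes and -0.0016 over all genes tested. Normalized CPM (counts scaled to a common library size) did not overlap between groups for 8 of the 9 genes, and for 67.5% of all genes tested. In RNA from bulk cultures, fewer cells with a transcript and less of it per cell cannot be told apart.

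**Figure D1:**
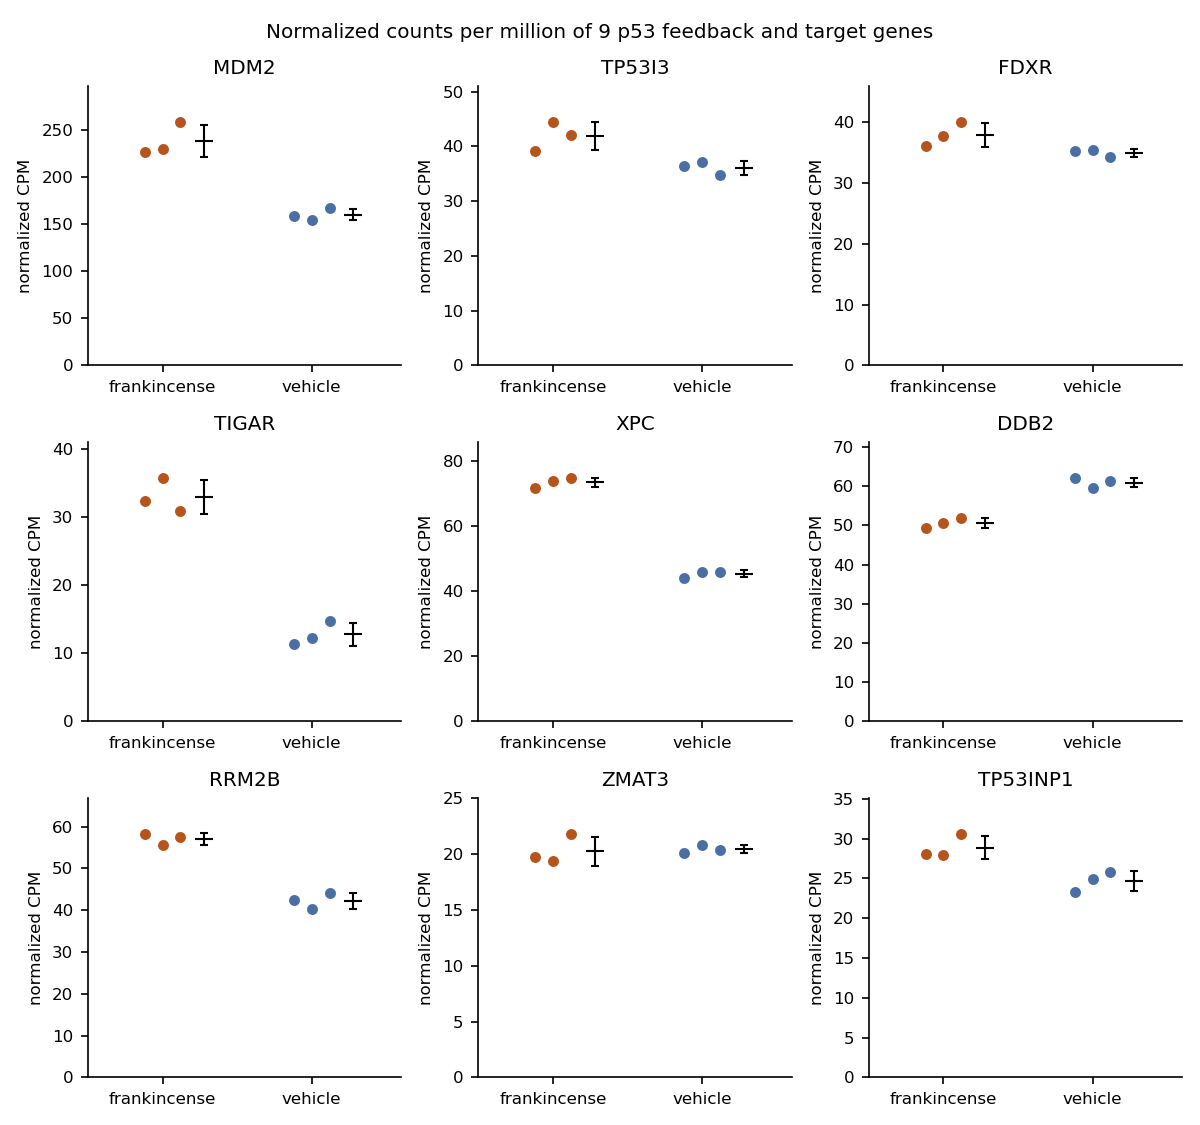
Normalized CPM of each of the 9 genes in each library (points, frankincense left and vehicle right), with the mean and SD of 3 libraries beside them; every axis starts at 0. Frankincense libraries lie above vehicle libraries for 7 genes, below them for DDB2, and overlap them for ZMAT3.

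MDM2, the ubiquitin ligase of the feedback loop, was the most abundant of the 9 in TPM, a scale that divides reads by transcript length and sets every library to the same total. It had 227, 230.1 and 258 CPM in frankincense libraries, against 159.2, 155 and 167 CPM in vehicle libraries. Every frankincense library was above every vehicle library, with frankincense replicate 3 the highest. Its log2 change was 0.57 ± 0.062 (SE), or 1.49-fold (edgeR adjusted p = 1.5e-06). MDM2 (ENSG00000135679) lies at chr12:68808176-68850686 on the plus strand of GRCh38, and the gene has an outer and an inner start, of which the inner is the one known for p53 control; reads of the starts were not separated in the gene tables.

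On the TPM scale the MDM2 difference was larger. MDM2 had 206, 189 and 185 TPM in frankincense libraries, against 99.2, 95.9 and 106 TPM in vehicle libraries. A test of log2(TPM + 1) with limma gave a log2 change of 0.94 (adjusted p = 2.52e-06), against 0.57 on counts. On that scale the median over all genes moved by 0.20, and 7389 genes were called higher and 2491 lower, against 5332 and 5177 on counts. On TPM rescaled to a common upper quartile, chosen after the data were seen, the MDM2 change was 0.64 (limma adjusted p = 0.000107). The median over all genes was then -0.04. RSEM's mean transcript length for MDM2 was 1671, 1844 and 2257 bases in frankincense libraries, against 2092, 2056 and 2076 bases in vehicle libraries. Frankincense replicates 1 and 2 had shorter means than every vehicle library and replicate 3 a longer one, so the groups overlapped (exact permutation test, two-sided, p = 0.4, with 0.1 the smallest that 3 against 3 allows). Frankincense replicate 1, with the shortest mean length and the lowest CPM of the frankincense libraries, had the highest TPM.

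Other genes lie across MDM2. AC025423.2, a processed pseudogene inside it on the same strand, held 6.40% as many counts, and AC025423.4, an antisense gene, held 5.89%. Their log2 changes were 0.80 and 0.95, and with both added to MDM2 the change was 0.61 (adjusted p = 8.76e-07), an alternative chosen after the data were seen. The protein-coding gene named CPM, on the other strand, held 1.67% as many counts and was lower, at -0.93 (edgeR adjusted p = 0.00016). That gene was not added to MDM2. Since no strand-keeping kit is stated, reads from a gene and its antisense partner cannot be told apart.

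MDM4, the relative of MDM2 that blocks p53 without destroying it, was also higher, with a log2 change of 0.37 ± 0.056 (adjusted p = 3.7e-05). The ratio of MDM2 to MDM4 in TPM was 7.34, 6.56 and 6.15 in frankincense libraries, against 5.64, 6.16 and 7.67 in vehicle libraries. The groups overlapped (means 6.68 ± 0.609 and 6.49 ± 1.05, SD, n = 3 each; exact permutation p = 0.8). In CPM the same ratio was 2.36 ± 0.0333 in frankincense libraries and 2.06 ± 0.156 in vehicle libraries (SD, n = 3 each), without overlap (exact permutation p = 0.1, the smallest possible).

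**Figure D2:**
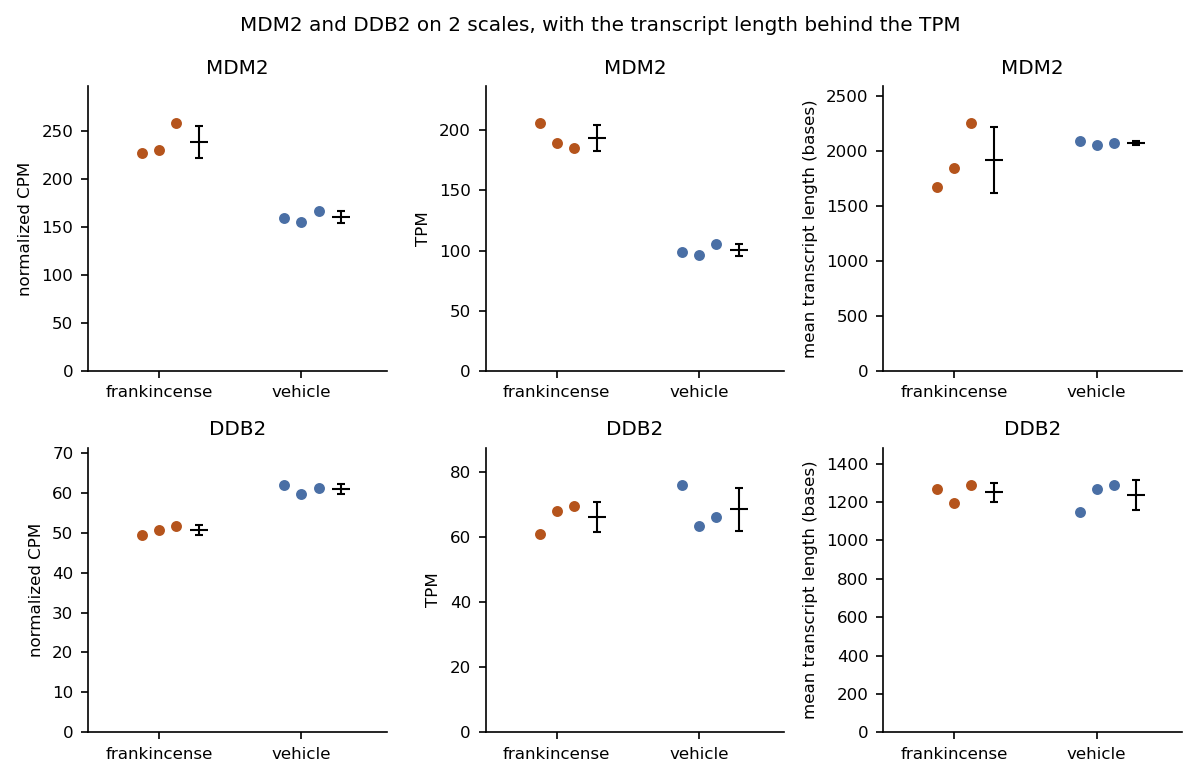
MDM2 (top row) and DDB2 (bottom row) in each library as normalized CPM, TPM and RSEM's mean transcript length in bases, frankincense left and vehicle right, with mean and SD of 3 libraries. MDM2 groups stay apart in CPM and in TPM, while DDB2 groups stay apart in CPM and overlap in TPM.

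TIGAR, which encodes a phosphatase that lowers fructose-2,6-bisphosphate and so slows glycolysis in favour of the pentose phosphate route, changed most among the 9 genes. It had 32.3, 35.7 and 30.8 CPM in frankincense libraries, against 11.4, 12.2 and 14.7 CPM in vehicle libraries. The lowest frankincense library was above the highest vehicle library, and the log2 change was 1.36 ± 0.092, or 2.57-fold (edgeR adjusted p = 1.56e-08). In TPM it had 18.7, 21.3 and 16.4 in frankincense libraries, against 4.20, 6.18 and 7.63 in vehicle libraries. Vehicle replicate 1, the lowest of these, also had a longer mean transcript length for TIGAR, 3415 bases, than vehicle replicates 2 and 3, at 2485 and 2492 bases. Without that library the log2 change in counts was 1.29. TIGAR (ENSG00000078237) lies at chr12:4307763-4354593 on the plus strand. The window printed above lies inside this span, before a RefSeq start, and holds no p53 element by the search used.

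Of 13 tested genes of fructose-2,6-bisphosphate and the pentose phosphate route, 3 were higher, 5 lower and 5 not called, near the shares over all genes tested (31.9% higher and 31.0% lower), with a median log2 change of -0.01. On log2(TPM + 1) the list had 7 higher and 3 lower (median 0.23), where 7389 of all genes were higher and 2491 lower (median 0.20). With library size scaling the list had a median of 0.06, against 0.07 over all genes. PFKFB2, an isoform that makes fructose-2,6-bisphosphate, was higher (log2 change 1.25 ± 0.096, adjusted p = 4.06e-08), as were RPE and RPIA, isomerases of the pentose route, at 0.53 and 0.17. PFKFB3 and PFKFB4, isoforms of the same family, were lower at -0.53 and -0.93, as was TKT, transketolase, at -0.38.

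TP53I3 (ENSG00000115129, chr2:24077433-24085861) and FDXR (ENSG00000161513, chr17:74862497-74873031), both on the minus strand, encode redox enzymes. TP53I3, a quinone oxidoreductase also known as PIG3, had 39.2, 44.4 and 42.1 CPM in frankincense libraries, against 36.4, 37.1 and 34.7 CPM in vehicle libraries. The groups did not overlap, though the lowest frankincense library was close to the highest vehicle library, and the log2 change was 0.22 ± 0.063 (adjusted p = 0.00803). On TPM rescaled to a common upper quartile, chosen after the data were seen, it was 0.16 and not called (adjusted p = 0.0608). FAM228B, which overlaps it on the other strand, held 21.8% as many counts and was lower, at -0.41.

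FDXR, the mitochondrial reductase that passes electrons to ferredoxins for steroid and iron-sulfur cluster synthesis, had 36.1, 37.7 and 39.9 CPM in frankincense libraries, against 35.2, 35.4 and 34.2 CPM in vehicle libraries. All frankincense libraries were higher, but by less than the test required: the log2 change was 0.12 ± 0.061 (edgeR adjusted p = 0.109). With library size scaling it was 0.19 and called (adjusted p = 0.0159), and on log2(TPM + 1) 0.35 and called (adjusted p = 0.00391). Those 2 settings moved the median of all genes by 0.07 and 0.20. FDXR was not called with upper-quartile scaling (0.07, edgeR adjusted p = 0.321) or with DESeq2 (0.12, adjusted p = 0.22). Nor was it called on TPM rescaled to a common upper quartile (0.05, limma adjusted p = 0.493). The exact decamer printed above lies 11 bases before a RefSeq start of FDXR and inside the gene span given here.

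The ferredoxin partners of FDXR passed the test. FDX1 and FDX2, which it reduces, had log2 changes of 0.44 ± 0.097 and 0.66 ± 0.079 (adjusted p = 0.00114 and 3.95e-06). Of 16 genes of ferredoxin and iron-sulfur assembly, 7 were higher, 2 lower and 7 not called, with a median of 0.19, beside 31.9% higher and 31.0% lower over all genes. With library size scaling 11 were higher and 2 lower, where 6198 of all genes were higher and 4367 lower. On log2(TPM + 1) 11 were higher and 0 lower (median 0.46), where 7389 of all genes were higher and 2491 lower (median 0.20). HSPA9 and HSCB, chaperones of cluster transfer, were higher at 1.32 and 0.69, and NFS1 and LYRM4, of the cysteine desulfurase complex, were lower on counts at -0.25 and -0.26, though not in mean TPM (36.3 ± 1.44 and 23.8 ± 0.227 in frankincense libraries, 33.6 ± 2.10 and 23.1 ± 1.66 in vehicle libraries; SD, n = 3 each). The differences between FDXR and these genes were not tested.

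XPC (ENSG00000154767, chr3:14145147-14178783, minus strand) and DDB2 (ENSG00000134574, chr11:47214465-47239240, plus strand) both recognise damaged DNA in nucleotide excision repair, and on counts they moved in opposite directions. XPC, which senses distorted DNA across the genome, had 71.7, 73.8 and 74.6 CPM in frankincense libraries, against 44.05, 45.9 and 46.0 CPM in vehicle libraries. The groups were far apart relative to their spread, with a log2 change of 0.70 ± 0.052, or 1.62-fold (adjusted p = 3.34e-08). In TPM it had 31.8, 32.9 and 37.4 in frankincense libraries, against 19.1, 18.3 and 18.99 in vehicle libraries. XPC was the only one of the 9 genes whose mean transcript length did not overlap between groups, at 3215 ± 52.7 bases in frankincense libraries and 3040 ± 91.0 bases in vehicle libraries (SD, n = 3 each; exact permutation p = 0.1, the smallest possible). LSM3 starts across the XPC start on the other strand, held 70.1% as many counts and was lower, at -0.77. AC090004.1, also on the other strand, held 6.02% as many counts and was higher, at 0.93 (edgeR adjusted p = 0.000481). AC093495.1, an antisense gene there, held 4.79% and was not called (-0.04, adjusted p = 0.878).

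DDB2, which binds ultraviolet damage in chromatin together with DDB1, had 49.3, 50.6 and 51.8 CPM in frankincense libraries, against 62.0, 59.6 and 61.2 CPM in vehicle libraries. Every frankincense library was below every vehicle library, and the log2 change was -0.27 ± 0.053, or 0.83-fold (adjusted p = 0.000439). In TPM the groups overlapped, with 61.1, 67.9 and 69.6 in frankincense libraries, against 76.1, 63.4 and 66.0 in vehicle libraries. On log2(TPM + 1) the change was -0.05 and was not called (limma adjusted p = 0.648), so the fall of DDB2 holds on the count scales run and not on unscaled TPM. On TPM rescaled to a common upper quartile it was -0.35 and called. Among the 7 members with promoter windows, DDB2 carried the closest match to the full p53 site in those windows, and the decamer pair printed above.

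Of 31 repair genes that work with XPC and DDB2, 14 were higher, 9 lower and 8 not called, with a median log2 change of 0.11, beside 31.9% higher and 31.0% lower over all genes. With library size scaling 16 were higher and 9 lower (median 0.18), and on log2(TPM + 1) 18 higher and 5 lower (median 0.40). Over all genes, library size scaling gave 6198 higher and 4367 lower (median 0.07). For log2(TPM + 1) the values over all genes were 7389 higher and 2491 lower (median 0.20). RAD23B, which stabilises XPC, was higher at 0.22 ± 0.063 (adjusted p = 0.00658), and DDB1, the partner of DDB2, had -0.10 and was not called (adjusted p = 0.166). GTF2H1 and MNAT1, subunits of the unwinding complex TFIIH, and ERCC4, a nuclease that cuts the damaged strand, were higher at 0.80, 0.72 and 0.62. PCNA, RBX1 and LIG1, which serve resynthesis, ubiquitin transfer and ligation, were lower at -0.95, -0.96 and -0.52.

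RRM2B (ENSG00000048392), also known as p53R2, is the small subunit of ribonucleotide reductase that makes DNA building blocks for repair and for mitochondria outside S phase. It had 58.1, 55.5 and 57.6 CPM in frankincense libraries, against 42.4, 40.3 and 44.1 CPM in vehicle libraries. The groups did not overlap, and the log2 change was 0.43 ± 0.057, or 1.35-fold (adjusted p = 1.07e-05). RRM2, the S-phase small subunit, moved the other way, with a log2 change of -1.07 ± 0.060 (adjusted p = 1.53e-09), and RRM1, the large subunit shared by both, had -0.24 ± 0.068 (adjusted p = 0.00654). RRM1 was close to level in TPM, at 78.6 ± 7.29 in frankincense libraries and 78.9 ± 4.42 in vehicle libraries (SD, n = 3 each).

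The balance of the small subunits is given by their ratio. For each RRM2 transcript in TPM there were 0.376, 0.279 and 0.287 RRM2B transcripts in frankincense libraries, against 0.109, 0.112 and 0.107 in vehicle libraries. Means were 0.314 ± 0.0541 in frankincense libraries and 0.109 ± 0.0026 in vehicle libraries (SD, n = 3 each), 2.87 times higher with the extract and without overlap (exact permutation p = 0.1, the smallest possible). In CPM the ratio was 2.83 times higher. RRM2 stayed the more abundant small subunit in every library. Cell cycle genes known from other work to be lowered by p53 through the DREAM complex are given beside RRM2. Of 18 such genes 14 were lower, 2 higher and 2 not called, where 31.0% of all genes were lower and 31.9% higher. Their median was -0.63, with MKI67, AURKA and CCNB2 at -1.19, -0.92 and -0.98. On log2(TPM + 1) 11 of the 18 were lower and 4 higher (median -0.39), where 2491 of all genes were lower and 7389 higher (median 0.20). Whether p53 lowered them here was not tested. CDC25A, a phosphatase that drives the cell cycle, was higher at 0.44. The part of cell cycle state in the subunit ratio was not tested.

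**Figure D3:**
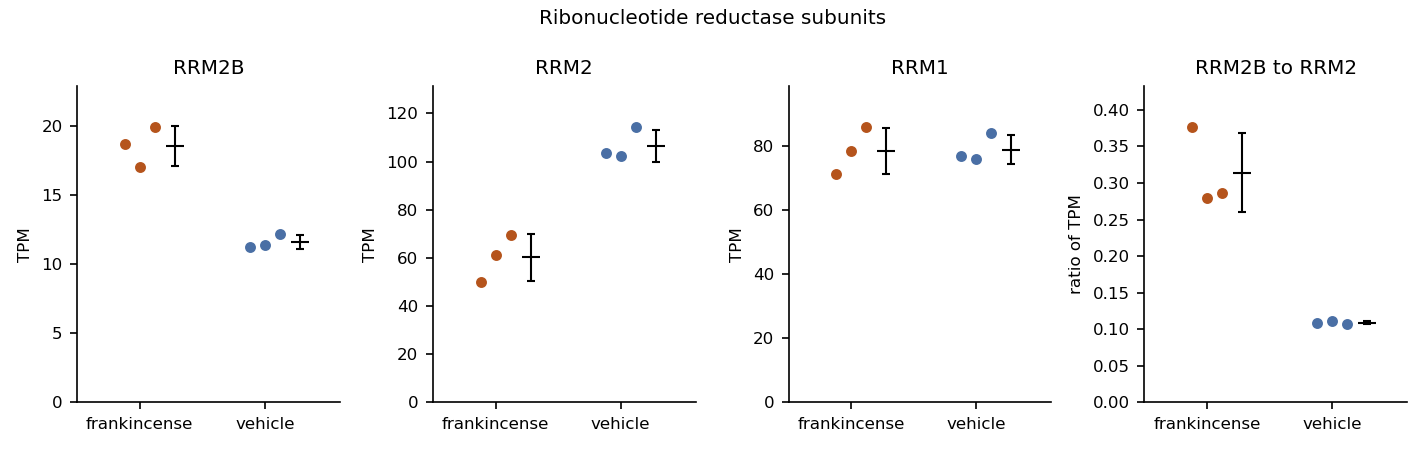
TPM of RRM2B, RRM2 and RRM1 and the ratio of RRM2B to RRM2 in each library, frankincense left and vehicle right, with mean and SD of 3 libraries. RRM2B is higher and RRM2 lower in all frankincense libraries, RRM1 overlaps, and the ratio lies between 0.279 and 0.376 in frankincense libraries and between 0.107 and 0.112 in vehicle libraries.

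Of 16 genes of nucleotide supply, 2 were higher, 9 lower and 5 not called on counts, with a median log2 change of -0.21, beside 31.9% higher and 31.0% lower over all genes. On log2(TPM + 1) the split was 8 higher and 5 lower, with a median of 0.12. All genes tested had 7389 higher and 2491 lower on that scale, with a median of 0.20. SAMHD1, which degrades DNA building blocks, and TK1, a thymidine kinase of S phase, were lower at -1.07 and -0.68. DCTD and NME1, which make thymidylate precursors and balance nucleotides, were higher at 0.34 and 0.21.

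ZMAT3 (ENSG00000172667, chr3:179017223-179072279, minus strand) and TP53INP1 (ENSG00000164938) act on RNA and on cell death. ZMAT3, a zinc finger protein that binds RNA and shapes splicing and decay, had 19.7, 19.3 and 21.7 CPM in frankincense libraries, against 20.1, 20.8 and 20.4 CPM in vehicle libraries. The frankincense libraries lay on both sides of the vehicle range, and the log2 change was -0.01 ± 0.072 (edgeR adjusted p = 0.888). In TPM they were higher, at 3.18, 3.03 and 3.78 in frankincense libraries and 2.79, 2.77 and 2.89 in vehicle libraries, but the test on log2(TPM + 1) did not call it (0.18, limma adjusted p = 0.188).

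TP53INP1, a nuclear protein that takes part in autophagy and helps p53 promote cell death, had 28.1, 27.9 and 30.5 CPM in frankincense libraries, against 23.3, 24.9 and 25.8 CPM in vehicle libraries. The groups did not overlap, with a log2 change of 0.23 ± 0.068, or 1.17-fold (adjusted p = 0.00982). The call was lost without vehicle replicate 1, the lowest library, when the log2 change was 0.19 (adjusted p = 0.0619). On TPM rescaled to a common upper quartile it was 0.14 and not called (adjusted p = 0.182). NDUFAF6, which overlaps it on the other strand, held 56.9% as many counts and was higher, at 0.31.

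Of 12 relatives of the members, 3 were higher, 4 lower and 5 not called, near the shares over all genes (31.9% higher and 31.0% lower). Besides MDM4, ZMAT1 was higher, at 0.36 ± 0.02 TPM in frankincense libraries and 0.11 ± 0.0656 TPM in vehicle libraries (SD, n = 3 each), as was VAT1, a relative of TP53I3, at a log2 change of 0.34. TP53INP2, the closest relative of TP53INP1, had -0.09 and was not called.

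Ordered by mean TPM in frankincense libraries, the 9 genes ran from MDM2 (193 ± 10.9) through DDB2 (66.2 ± 4.51), TP53I3 (48.8 ± 4.80), XPC (34.0 ± 2.98), FDXR (32.0 ± 2.93), TIGAR (18.8 ± 2.42), RRM2B (18.6 ± 1.45) and TP53INP1 (7.48 ± 0.782) to ZMAT3 (3.33 ± 0.397; SD, n = 3 each). Of these neighbours, XPC and FDXR overlapped, as did TIGAR and RRM2B. In vehicle libraries the order was MDM2 (100.2 ± 4.91), DDB2 (68.5 ± 6.71), TP53I3 (35.1 ± 1.10), FDXR (24.8 ± 0.505), XPC (18.8 ± 0.415), RRM2B (11.6 ± 0.488), TIGAR (6.003 ± 1.72), TP53INP1 (5.38 ± 0.307) and ZMAT3 (2.82 ± 0.0643), and TIGAR and TP53INP1 overlapped. XPC and TIGAR thus stood a place higher in the order in frankincense libraries than in vehicle libraries, where their overlap with FDXR and RRM2B was absent.

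The 14 stress-shared p53 targets were all tested: 12 were higher, 1 lower and 1 not called, with a median log2 change of 0.70, beside 31.9% higher and 31.0% lower over all genes. The 4 largest changes were those of GADD45A, a growth arrest and repair factor (3.20 ± 0.087), GDF15, a secreted stress cytokine (3.11 ± 0.069), ATF3, a stress transcription factor (2.49 ± 0.091), and SESN2, an inhibitor of mTORC1 (1.78 ± 0.070), with adjusted p of 8.25e-12, 2.55e-13, 2.1e-11 and 4.01e-11. CDKN1A, the cell cycle inhibitor p21, had 0.82 ± 0.062, and the kinases PLK3 and PLK2 and the antiproliferative BTG2 had 0.72, 0.70 and 0.70. TNFRSF10B, a death receptor, SAT1, which breaks down polyamines, DDIT4, an inhibitor of mTORC1, and PMAIP1, the BH3-only protein NOXA, followed at 0.56, 0.42, 0.38 and 0.33. BBC3, the BH3-only protein PUMA, had 0.16 and was not called (adjusted p = 0.311), and IER5 was lower at -0.49 (adjusted p = 1.11e-05).

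The 35 other p53 targets were grouped here as mainly p53 targets, a grouping that was not tested. Of these, 29 were tested, and 9 were higher, 10 lower and 10 not called, with a median of 0.02. These counts are near the shares over all genes, 31.9% higher and 31.0% lower. On log2(TPM + 1) they were 14 higher and 6 lower (median 0.19), where 7389 of all 16719 genes were higher and 2491 lower (median 0.20). AEN, a nuclease that promotes cell death, was higher at 1.01 ± 0.072, as were FBXO22, a ubiquitin ligase subunit, at 0.52 and BLOC1S2, a lysosome transport factor, at 0.56. TP53I11, APAF1, the scaffold of the apoptosome, and IKBIP were lower at -0.81, -0.76 and -0.56. PPM1D, the phosphatase that switches p53 off again, had -0.14 and was not called (adjusted p = 0.0634).

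Side by side, 12 of 14 stress-shared targets, 6 of the 9 genes and 9 of 29 other mainly p53 targets were higher, and 31.9% of all genes tested. The median changes were 0.70, 0.23 and 0.02, against -0.0016 over all genes. The ranges overlapped: all 9 genes lay within the range of the stress-shared targets (-0.49 to 3.20), and all but TIGAR, at 1.36, within that of the other targets (-0.81 to 1.01). Of the 29 other targets 14 were higher with library size scaling and on log2(TPM + 1), where 6198 and 7389 of all 16719 genes were higher, and 6 were higher and 9 lower on TPM rescaled to a common upper quartile. On log2(TPM + 1) the medians were 0.82, 0.46 and 0.19, against 0.20 over all genes. The order of the 3 medians was the same on counts and on log2(TPM + 1). No test of the difference between lists was made, and all 3 lists were measured in the same 6 libraries. The lists were also chosen with earlier results of these data known, so their contrast is a description and not independent support.

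**Figure D4:**
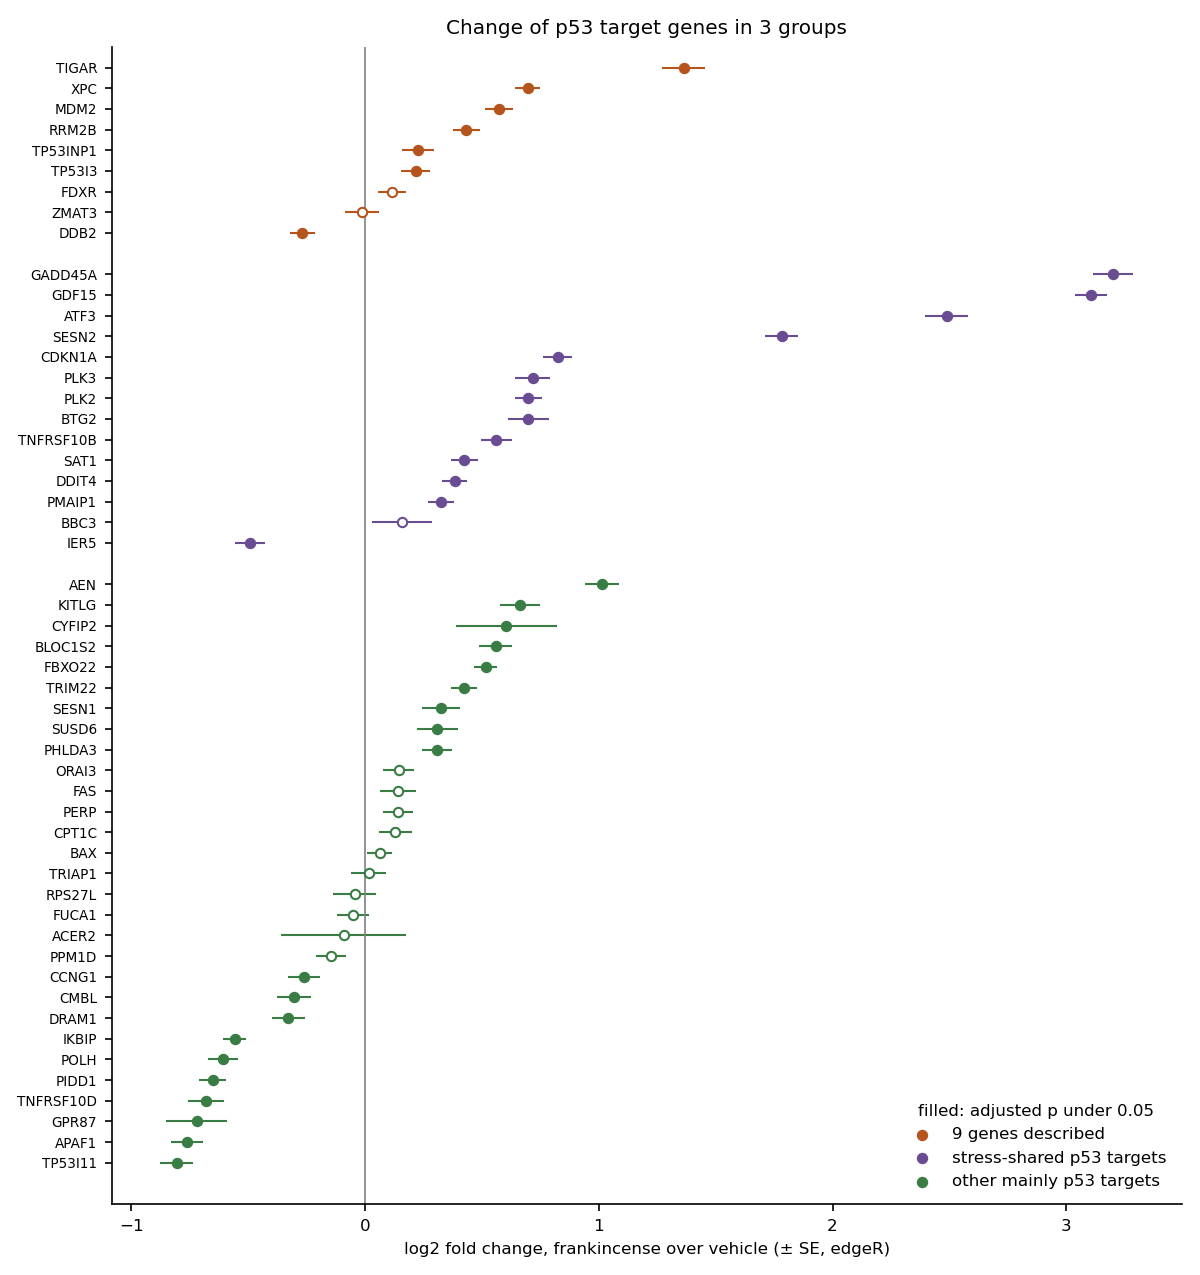
Log2 fold change of frankincense over vehicle with its SE from edgeR for the 9 genes (top), 14 stress-shared p53 targets (middle) and 29 other mainly p53 targets (bottom), filled where adjusted p was under 0.05. The stress-shared targets reach 3.20, TIGAR reaches 1.36, and the other targets run between -0.81 and 1.01 on both sides of 0.

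Around p53 itself, 31 of 32 listed regulators and cofactors were tested, of which 9 were higher, 8 lower and 14 not called, with a median of -0.02, beside 31.9% higher and 31.0% lower over all genes. On log2(TPM + 1) 16 were higher and 5 lower (median 0.26), where 7389 of all genes were higher and 2491 lower (median 0.20). With library size scaling 11 were higher and 8 lower (median 0.05), where 6198 of all genes were higher and 4367 lower (median 0.07). Besides MDM4, ATR, a kinase that senses stalled replication, and SIRT1, a deacetylase of p53, were higher at 0.51 and 0.48. KAT8, an acetyltransferase, PPP1R13L, the inhibitor iASPP, and CHEK2, a checkpoint kinase, were lower at -0.61, -0.66 and -0.45. ATM, the kinase that senses double-strand breaks, had 0.09 (adjusted p = 0.209) and CDKN2A, whose ARF product blocks MDM2, had -0.17 (adjusted p = 0.137), and neither was called.

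The genes whose pattern over the 6 libraries was most like that of MDM2 were GPNMB, TNFRSF10B and GOLGB1. They were chosen among 1787 genes within 2-fold of its mean CPM, by Euclidean distance between centred log2 CPM values, and their distances were 0.0504, 0.0643 and 0.0737. Their log2 changes were 0.57, 0.56 and 0.57, against 0.57 for MDM2, a likeness that follows from how they were chosen.

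Libraries held 22615150 to 27615196 expected counts. The leading principal component (74.2% of variance) separated the groups, and the next (7.99%) set frankincense replicate 3 apart from frankincense replicates 1 and 2. Without that library the same numbers of the 9 genes were called, 6 higher and 1 lower, and MDM2 changed by 0.52. Epithelial keratins KRT8, KRT18 and KRT19 were abundant, at 684, 582 and 118 TPM on average in frankincense libraries and 771, 661 and 149.9 TPM in vehicle libraries, while CDH1, which encodes E-cadherin, was near 0, at 0.02 TPM in frankincense libraries and 0.133 TPM in vehicle libraries. Stromal markers were also abundant, with summed levels of 2861 to 3076 TPM in frankincense libraries and 3920 to 4012 TPM in vehicle libraries, with 6 of 7 lower (THY1, COL1A1 and DCN at log2 changes of -1.45, -1.36 and -1.76) and CDH2 higher at 0.28. Of the epithelial markers 6 of 7 were tested, with KRT7 and EPCAM higher at 0.94 and 0.72, the 3 keratins lower and 1 not called, and summed levels were 1364 to 1423 TPM in frankincense libraries and 1577 to 1608 TPM in vehicle libraries. The immune list summed to 35.3 to 64.0 TPM in frankincense libraries and 30.3 to 34.1 TPM in vehicle libraries, almost all of it CD68, with CD3E at 0 throughout, and of 3 tested CD14 was lower at -2.96 and the others were not called. The endothelial list summed to 0.07 to 0.4 TPM in frankincense libraries and 0.37 to 0.48 TPM in vehicle libraries, with CDH5 at 0 and 0 of 6 tested. The part of the stromal and epithelial shifts in the values of the 9 genes was not tested.

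**Figure D5:**
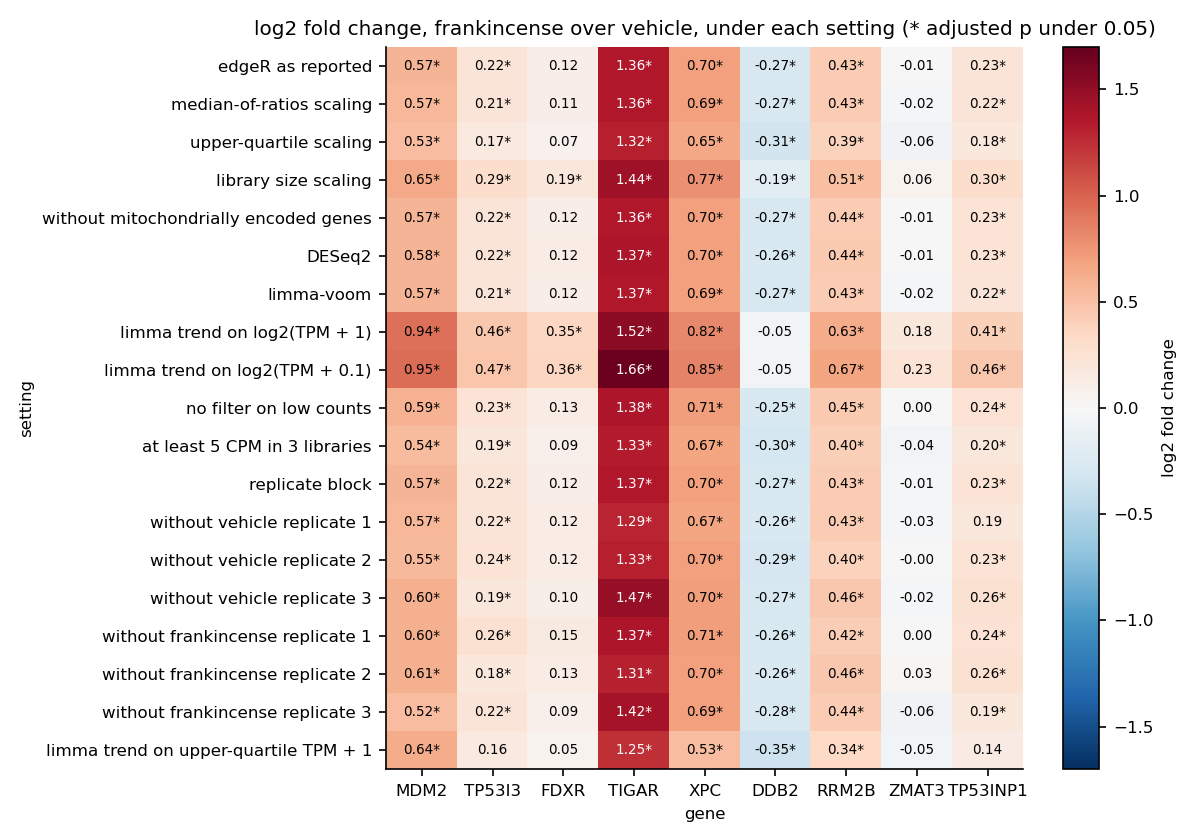
Log2 fold change of frankincense over vehicle for the 9 genes (columns) under each normalization, test, filter, replicate block and left-out library (rows), with an asterisk where adjusted p was under 0.05. MDM2, TIGAR, XPC and RRM2B are called in every row shown. DDB2 loses its call on unscaled TPM, and FDXR gains one there and with library size scaling. TP53I3 and TP53INP1 lose theirs on upper-quartile TPM, and TP53INP1 also without vehicle replicate 1.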

How the data were processed

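The submitters' processing notes name STAR, RSEM 1.3.1 and GRCh38. Neither the version of STAR nor an annotation is given in the sources used here, and read filters are not stated there. According to the columns, per the file headers, the authors' deposited values are expected counts (reads that fit several genes are divided among them), TPM, FPKM and abundance-weighted transcript lengths; the FPKM values were not used. Of 60616 gene identifiers, 60597 had a symbol and 58385 a position in GENCODE 29.

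Expected counts were rounded, then fitted in R 4.3.3 by edgeR 4.0.16 (filterByExpr, TMM, robust glmQLFit with the legacy fit, glmQLFTest, two-sided), with Benjamini-Hochberg adjustment over 16719 genes. The SE is the absolute log2 change divided by the square root of F. Normalized CPM use TMM-scaled library sizes. The lowest depth was 22615150 counts, where 3 counts are 0.133 CPM; this floor is for counting error alone. The code was tested on simulated data. A chi-square test of counts per degree of freedom gave 3.86 to 4.44 between vehicle libraries and 4.15 to 13.98 between frankincense libraries, so each counted as separate.

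Other settings tried were scaling by median of ratios, by upper quartile or by library size, leaving out mitochondrially encoded genes, DESeq2 1.42.0, limma-voom and limma with trend on TPM (limma 3.58.1), other filters, a replicate block and leaving out each library. Members and lists were chosen with earlier results of these data known. Named are all 9 members, the tested stress-shared targets, up to 3 risers and 3 fallers with the smallest adjusted p in each other list, 13 partner genes whatever their result, and the 3 genes nearest to MDM2; some genes so named are not reported here, and TP53INP2 was added after its values were seen. Promoter sequences came from RefSeq, GRCh38.p14.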

Additional observations from a re-analysis of the deposited data

How the results depend on the processing

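Of the 9 genes, MDM2, TIGAR, XPC and RRM2B kept direction and call under every alternative run, with log2 changes of 0.52 to 0.95, 1.25 to 1.66, 0.53 to 0.85 and 0.34 to 0.67. With limma on log2(TPM + 1) and on log2(TPM + 0.1), 0 of the 9 genes were lower and 14 of the other mainly p53 targets were higher, as were 14 with library size scaling, against 1 and 9 as reported; those scales move the median of all genes by 0.20, 0.24 and 0.07. ZMAT3, not called in any setting, changed sign to 0.064 with library size scaling, 0.18 and 0.23 on TPM and 0.0015 without a filter on low counts, and lay between -0.056 and 0.028 with a library left out. The RRM2B to RRM2 difference was 0.40 in CPM, against 0.20 in TPM. On TPM rescaled to a common upper quartile, 4 of the 9 genes were higher and 1 lower. With a replicate block 6 of the 9 genes were higher and 1 lower, and no call among the 9 changed from the reported ones. Same-numbered libraries deviated together only weakly (correlations of 0.05, 0.10 and 0.04), though each library correlated best with its own number, a hint from the data and not from the design. Among the alternative fold changes of the 9 genes, 6 changed sign, all of ZMAT3, 3 gained a call and 5 lost one. Sign changes among the other values were 4 of 54 list medians, all of the other mainly p53 targets, 2 of 14 ratio differences, both MDM2 to MDM4 with a replicate 1 left out, and 12 of 54 transcript length differences; the cause was not tested.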
